A study of Homo sapiens with 2 samples.

Results

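The genes described here are 39 human genes of double-strand break repair, the Fanconi pathway and excision repair, with their checkpoint kinases. They were chosen by gene symbol, and all 39 were found among the 18930 genes of the deposited RNA-seq table, where 16210 genes had at least 10 reads over both libraries and were compared. By role they fall into 6 groups, with 12 genes of homologous recombination, 5 Fanconi genes, 5 genes of end joining, 7 of nucleotide excision repair, 6 of base excision and single-strand break repair, and 4 checkpoint kinases. The series holds 1 library of each group, labelled DR and WT, and both are given as A375, a human melanoma cell line, grown in DMEM with fetal bovine serum. In the study, DR stands for cells kept in rising concentrations of dacarbazine (DTIC) until the last passage, after which the viable cells were taken as resistant, and WT for the wild-type control. GEO's labels give 105 days of treatment, with the drug spelled DITC, for each library, so also for the one labelled WT. No genetic change or other agent is given for either library.

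Every direction below rests on the sample descriptions, which are the only link between the columns of the table and the labels. The names of the count columns differ by a single mark, and neither name says wild type. The estimated counts summed to 54878355 reads for DR and 35294670 for WT. With 1 library per condition no difference could be checked against replicates. Log2 fold changes are of the library labelled DR over the library labelled WT, after adding 0.5 CPM, and where a pair of levels is given for a gene the value for DR comes first. Their 95% intervals hold the error of counting reads and nothing else, and what differs is a pair of libraries, not the conditions. Reads without molecular identifiers are not independent molecules. The labelled cell type went against its markers. Of 16 melanocyte markers, 14 had counts, their CPM (reads relative to the scaled library total) summed to 49.4 in the library labelled DR, against 47.6 in the library labelled WT, and 1 gene, MITF, exceeded the median gene. SOX10 had 3 reads and 0 reads, and TYRP1 had 0 and 17. The 16 plasma cell markers summed to 8797 and 8702 CPM, and 13 of them exceeded the median gene in each library. Of 8 fibroblast markers, 6 had counts and 0 exceeded the median gene. The part of cell type in the results was not tested, and the libraries are named below by their labels only.

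Dacarbazine is a prodrug whose active product methylates DNA. In base excision repair, glycosylases remove methylated bases and leave abasic sites, which are then cut, filled and sealed. Lesions that persist into S phase can stall forks and break them. Homologous recombination repairs a break by copying the sister chromatid. In it BRCA1, PALB2 and BRCA2 act together, and RAD51C, XRCC2 and XRCC3 work in other complexes. End joining ligates broken ends directly after the Ku dimer has captured them. The Fanconi proteins unhook crosslinks between strands, nucleotide excision repair cuts out bulky lesions, and the kinases ATM and ATR signal damage to CHEK2 and CHEK1.

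Of the 15 pairs of partners compared below, 4 changed by at least 0.5 in the log2 ratio of their reads between the libraries. BRCA2 with BRCA1 and ERCC2 with ERCC3, which are not shown here, were among these. The promoters of the other 2 pairs, RAD51C with XRCC3 and XRCC1 with LIG3, are shown. They are the 250 bases before the first RefSeq start listed, from GRCh38.p14, 5′ to 3′ on the strand of the gene, and capitals mark motifs found on either strand. RAD51C lies at chr17:58692323-58692572 (plus strand), XRCC3 at chr14:103715452-103715701 (minus strand), XRCC1 at chr19:43575528-43575777 (minus strand) and LIG3 at chr17:34980262-34980511 (plus strand).
RAD51C: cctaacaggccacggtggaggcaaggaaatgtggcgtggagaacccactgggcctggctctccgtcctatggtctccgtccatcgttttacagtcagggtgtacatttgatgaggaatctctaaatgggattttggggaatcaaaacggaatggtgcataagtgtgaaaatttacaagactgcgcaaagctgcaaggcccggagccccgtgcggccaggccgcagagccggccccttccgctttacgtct
XRCC3: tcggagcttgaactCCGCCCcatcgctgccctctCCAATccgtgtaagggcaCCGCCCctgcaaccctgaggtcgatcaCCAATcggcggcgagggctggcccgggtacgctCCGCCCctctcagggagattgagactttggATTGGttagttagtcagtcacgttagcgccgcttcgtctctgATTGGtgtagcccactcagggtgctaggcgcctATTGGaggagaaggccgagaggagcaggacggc
XRCC1: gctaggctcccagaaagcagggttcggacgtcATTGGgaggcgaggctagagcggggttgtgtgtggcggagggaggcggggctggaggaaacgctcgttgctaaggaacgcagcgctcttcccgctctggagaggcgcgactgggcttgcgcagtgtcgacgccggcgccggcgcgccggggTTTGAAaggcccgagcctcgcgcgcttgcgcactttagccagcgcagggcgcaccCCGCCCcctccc
LIG3: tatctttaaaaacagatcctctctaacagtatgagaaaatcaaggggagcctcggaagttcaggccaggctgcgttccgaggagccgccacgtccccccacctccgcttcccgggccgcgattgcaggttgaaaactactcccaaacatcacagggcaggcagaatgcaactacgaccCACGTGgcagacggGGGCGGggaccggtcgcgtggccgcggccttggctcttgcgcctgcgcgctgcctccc
The letters searched, each on both strands, were CCAAT for the CCAAT box, GGGCGG for SP1, CCGGAAG for ETS factors, CACGTG for the E-box, TTTGAA for the CHR element, GCATGCGC for NRF1, and TTTGGCGC or TTTCCCGC for E2F. The promoter of XRCC3 held 5 CCAAT boxes and 3 SP1 motifs, whereas that of its partner RAD51C held 0 of the motifs searched. For RAD51C 2 starts are listed, and only the bases before the first were searched. XRCC1 held 1 CCAAT box, 1 SP1 motif and 1 CHR element, and LIG3 held 1 SP1 motif and 1 E-box.

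Promoters were given for 34 of the 39 genes. Of these, 23 (67.6%) held an SP1 motif, against 42.3% of all 27305 promoters of the same length and 69.4% of the 8190 that belong to genes whose mean reached 10 CPM. The ETS motif stood in 11 of the 34 (32.4%), against 8.82% and 18.1%. A CCAAT box was held by 13 (38.2%, against 33.0% and 36.0%), an E-box by 2 (5.88%, against 6.49% and 9.49%), a CHR element by 3 (8.82%, against 13.6% and 8.02%), the NRF1 motif by 2 (5.88%, against 2.81% and 5.37%) and the E2F motif by 1 (2.94%, against 1.963% and 3.37%). The 2 promoters with an E-box were those of BRCA2 and LIG3, the genes with the lowest log2 fold changes, a match noticed after the values were seen. Over the 34 promoters the median GC content was 63.6% with 21 CpG sites, close to the 65.2% and 22 of genes whose mean reached 10 CPM. A match of letters is a description and not a binding site.

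None of the 39 repair genes differed 2-fold between the libraries on the scale of CPM + 0.5. The count past 2-fold was 0 upward and 0 downward, whereas 7.48% of all genes compared were at least 2-fold higher in the library labelled DR and 4.16% were at least 2-fold lower. Many genes of the table are weakly expressed and the repair genes are not, since each of the 39 had a mean of at least 10 CPM. Among the 9860 genes at or above that mean, 4.08% were at least 2-fold higher and 3.66% at least 2-fold lower, and 92.3% lay within 2-fold. At a limit of 1.5-fold, 5 repair genes were lower by that factor (BRCA2, LIG3, XRCC3, ERCC2 and PRKDC) in the library labelled DR, and 0 were higher. With scaling to library totals ERCC2 and PRKDC, both then at -0.55, no longer passed 1.5-fold. All genes compared passed it in 11.2% of cases downward and 15.1% upward. For genes whose mean reached 10 CPM these shares were 11.1% and 9.74%, against 12.8% of the repair genes downward. The downward share of the repair genes thus lay near that of other genes. In bulk RNA, fewer cells of a type and less RNA per cell cannot be told apart.

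The median log2 fold change of the 39 repair genes was -0.11, beside 0.01 for all genes compared and -0.03 for those with a mean of at least 10 CPM. The interquartile range of the repair genes ran from -0.29 to 0.06. The counting interval lay wholly below 0 for 21 repair genes (53.8%) and wholly above 0 for 9 (23.1%), and it spanned 0 for the other 9. For all genes compared the interval lay below 0 in 34.6% and above 0 in 35.8%, and for those with a mean of at least 10 CPM in 44.4% and 37.8%. Deep counts make this interval narrow, so that it excludes 0 for small differences. The total of reads on the 39 genes was 0.525% of the library labelled DR and 0.567% of the library labelled WT.

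**Figure D1:**
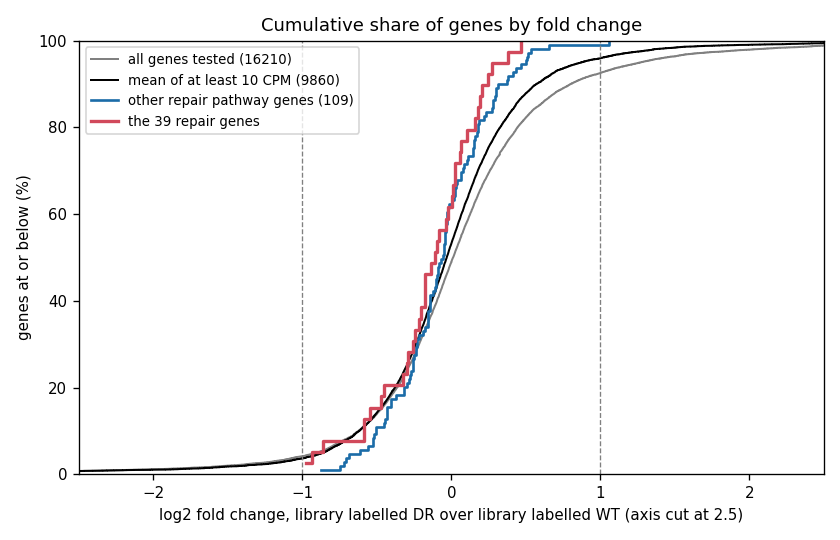
Cumulative share of genes (vertical axis, percent) at or below each log2 fold change of the library labelled DR over the library labelled WT (horizontal axis, from -2.5 to 2.5), for all genes compared, genes whose mean reached 10 CPM, other repair pathway genes and the 39 repair genes. The curve of the repair genes runs from -0.97 to 0.47 and stays inside the dashed lines at 2-fold, where the curve of all genes has 4.16% of genes at or below -1 and 7.48% at or above 1.

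**Figure D2:**
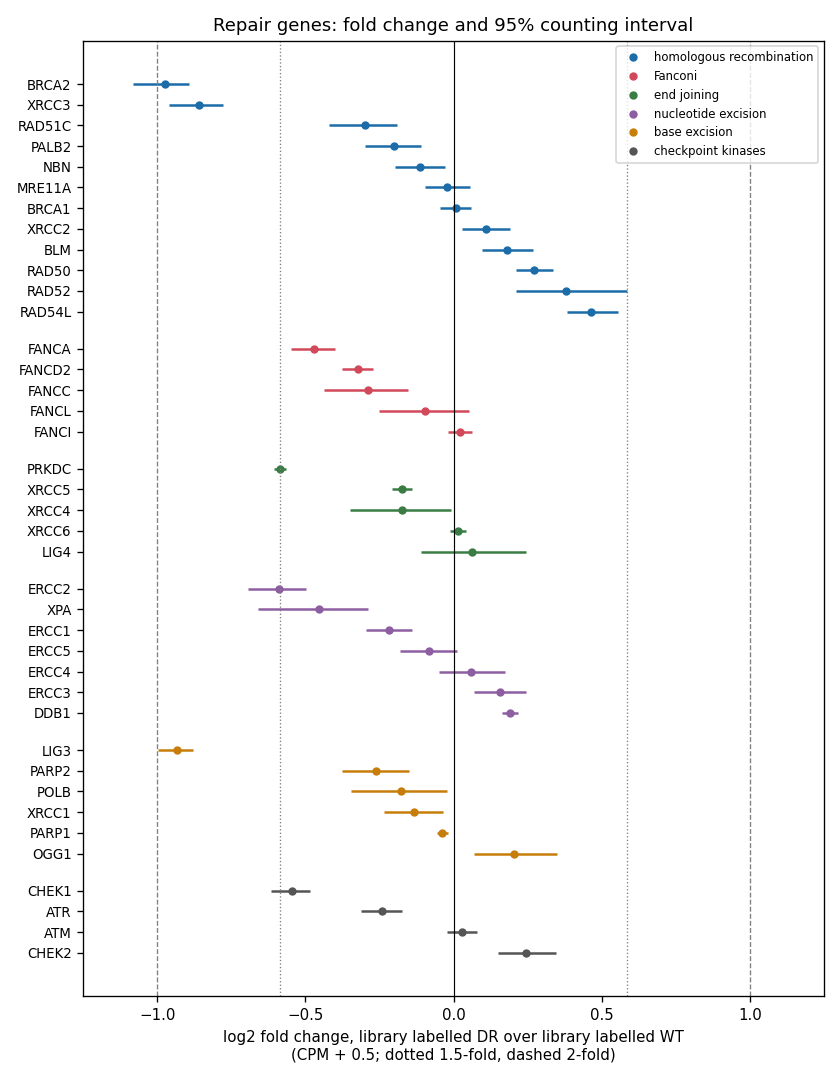
Log2 fold change (horizontal axis) of each repair gene on the scale of CPM + 0.5, as points with 95% Clopper-Pearson counting intervals, in 6 colours for the groups by role. BRCA2, LIG3 and XRCC3 lie left of the dotted line at 1.5-fold with their whole intervals, ERCC2 and PRKDC sit on it, and RAD54L (0.47) is the highest.

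Homologous recombination held the widest range of the groups, from BRCA2 at -0.97 to RAD54L at 0.47, with a median of -0.01. BRCA2, a tumour suppressor that acts on resected single-stranded DNA, had 1631 reads in the library labelled DR, against 2028 in the library labelled WT, or 29.4 and 58.2 CPM. Its log2 fold change was -0.97 (interval -1.08 to -0.89), the lowest of the 39, so that its interval reached past 2-fold. Per length, the level of BRCA2 was 5.76 TPM (a share of all transcripts per length, computed from the estimated counts and the gene lengths in the table) in the library labelled DR, the lowest of the 39, and 11.6 TPM in the library labelled WT, which on this scale is slightly past 2-fold. Its partners differed less. BRCA1, the ubiquitin ligase subunit that recruits PALB2 and BRCA2, had 134.0 and 133.4 CPM, with a difference of 0.01 (-0.05 to 0.06). PALB2, the bridge between BRCA1 and BRCA2, had 38.19 and 44.003 CPM (-0.20, interval -0.30 to -0.11). The log2 ratio of BRCA2 to BRCA1 reads was therefore 0.99 lower in the library labelled DR (difference -0.99, interval -1.10 to -0.89), and per length BRCA1 exceeded BRCA2 by 8.01 times there and by 4.02 times in the library labelled WT.

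RAD51C, XRCC2 and XRCC3 differed among themselves. XRCC3 had 1801 reads in the library labelled DR, against 2064 in the library labelled WT, at 32.4 and 59.2 CPM, and a log2 fold change of -0.86 (-0.96 to -0.78). RAD51C, its direct partner, had 25.8 and 31.8 CPM (-0.30, interval -0.42 to -0.19). XRCC2, which works in a complex without XRCC3, had 61.3 and 56.9 CPM (0.11, interval 0.03 to 0.19). XRCC3 was thus lower than both of these genes relative to the library labelled WT. Its exons overlap those of KLC1 on the opposite strand over 45.3% of their bases in GENCODE 29, and KLC1 had a log2 fold change of -0.65. Whether the authors' counting used strand is not given in the sources used here, so that reads of XRCC3 and KLC1 may not have been told apart.

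RAD54L and RAD52 were the highest of the 39 genes. RAD54L, a translocase that acts during strand invasion of the sister duplex, had 63.3 CPM in the library labelled DR, against 45.7 in the library labelled WT. The difference was 0.47 (0.38 to 0.56), or 1.38 times. Of its exon bases 18.0% overlap LRRC41 on the other strand, a gene whose log2 fold change was -0.67. RAD52, which anneals complementary strands, had 13.0 and 9.84 CPM (0.38, interval 0.21 to 0.59). BLM, the helicase that dissolves double Holliday junctions, had 56.73 and 50.03 CPM (0.18, interval 0.10 to 0.27). The break sensor of MRE11A, RAD50 and NBN was split, since RAD50 was higher in the library labelled DR (110.1 and 91.2 CPM, 0.27, interval 0.21 to 0.34) while the nuclease MRE11A, whose sign changed with library totals, had 63.9 and 64.9 CPM (-0.02, interval -0.10 to 0.06) and NBN had 50.8 and 54.9 CPM (-0.11, interval -0.20 to -0.03).

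The 5 Fanconi genes had a median log2 fold change of -0.29, the lowest of the groups, and none passed 1.5-fold. FANCA, a core subunit of the ubiquitin ligase that acts at crosslinks, had 59.0 CPM in the library labelled DR, against 82.0 in the library labelled WT (-0.47, interval -0.55 to -0.40). Its exons overlap ZNF276 on the opposite strand over 22.4% of their bases, and ZNF276 had almost the same value, -0.48. FANCD2 had 127.0 and 158.9 CPM (-0.32, interval -0.38 to -0.27). It is ubiquitinated in a dimer with FANCI, which had 239 and 236 CPM (0.02, interval -0.02 to 0.06). The log2 ratio of FANCI to FANCD2 was hence 0.35 higher in the library labelled DR (0.28 to 0.41). FANCC, another core subunit, had 16.6 and 20.4 CPM (-0.29, interval -0.44 to -0.15), and FANCL, the catalytic subunit of the ligase, 15.9 and 17.1 CPM (-0.10, interval -0.25 to 0.05).

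Among the end joining genes the kinase PRKDC stood lowest. PRKDC, the catalytic subunit of DNA-PK, had 38222 reads in the library labelled DR, against 35997 in the library labelled WT, at 687.9 and 1033 CPM. Its log2 fold change of -0.59 (-0.61 to -0.57) equals 1.501 times, at the limit itself. The Ku subunits that recruit it differed less, with XRCC5 (Ku80) at 321.6 and 363.0 CPM (-0.17, interval -0.21 to -0.14) and XRCC6 (Ku70) at 558.2 and 552.7 CPM (0.01, interval -0.01 to 0.04). Per length, PRKDC stood at 0.546 of XRCC5 in the library labelled DR, against 0.727 in the library labelled WT. The ligase LIG4 (12.6 and 12.1 CPM) and its scaffold XRCC4 (12.3 and 14.0 CPM) were among the weakest genes by CPM, with differences of 0.06 (-0.11 to 0.24) and -0.17 (-0.35 to -0.01).

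In nucleotide excision repair the helicase subunits of TFIIH went opposite ways. ERCC2 (XPD), which opens the damaged strand, had 1754 and 1664 reads in the libraries labelled DR and WT, or 31.6 and 47.7 CPM, with a log2 fold change of -0.59 (-0.69 to -0.50). ERCC3 (XPB), the translocase of the same complex, had 52.7 and 47.3 CPM (0.16, interval 0.07 to 0.24). Their log2 ratio, ERCC3 to ERCC2, was 0.75 higher in the library labelled DR (0.62 to 0.88). KLC3 overlaps 12.1% of the exon bases of ERCC2 on the other strand but had 22 and 10 reads in all. XPA, the damage verifier, was the weakest member of the 39 by CPM in the library labelled DR (9.25 CPM, against 12.9 in the library labelled WT), with a difference of -0.45 and a wide interval of -0.66 to -0.29. ERCC1 and ERCC4 form the nuclease that cuts 5' of the lesion. ERCC1 had 58.8 and 68.4 CPM (-0.22, interval -0.29 to -0.14) and ERCC4 31.7 and 30.4 CPM (0.06, interval -0.05 to 0.17). The nuclease ERCC5 (39.5 and 41.9 CPM) differed by -0.08 (-0.18 to 0.01). DDB1, the adaptor of the CUL4 ligase that recognises ultraviolet damage, had 575.9 and 504.2 CPM (0.19, interval 0.17 to 0.22).

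In base excision and single-strand break repair, LIG3 was the only gene past 1.5-fold. LIG3, the ligase that seals nicks in complex with XRCC1, had 4216 reads in the library labelled DR, against 5068 in the library labelled WT, at 75.9 and 145.4 CPM, and its log2 fold change was -0.93 (-0.997 to -0.879). XRCC1, the scaffold, had 36.39 and 39.99 CPM (-0.13, interval -0.24 to -0.04). Per length LIG3 stood above XRCC1 in the library labelled WT (69.4 and 43.0 TPM) and slightly below it in the library labelled DR (35.8 and 38.7 TPM), a change of -0.80 in their log2 ratio (-0.92 to -0.69). The exons of LIG3 overlap RFFL on the opposite strand over 43.8% of their bases, and RFFL had a log2 fold change of 0.05, unlike LIG3.

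The other base excision genes varied little. PARP1, which binds strand breaks and makes poly(ADP-ribose), was the highest of the 39 per length in both libraries (637 and 662 TPM), with a log2 fold change of -0.04 (-0.06 to -0.02). Its smaller relative PARP2 had 26.7 and 32.1 CPM (-0.26, interval -0.38 to -0.15). POLB, the gap-filling polymerase, had 13.5 and 15.3 CPM (-0.18, interval -0.35 to -0.02). OGG1, the glycosylase of 8-oxoguanine, had 21.8 and 18.8 CPM (0.20, interval 0.07 to 0.35) and was the only gene of the group whose interval lay above 0.

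Of the checkpoint kinases, CHEK1 was the lowest, with 70.2 CPM in the library labelled DR, against 102.8 in the library labelled WT (-0.55, interval -0.62 to -0.48). ATR, which activates it at stalled forks, had 74.0 and 87.6 CPM (-0.24, interval -0.31 to -0.18). On the branch for double-strand breaks, ATM had 149.5 and 146.7 CPM (0.03, interval -0.02 to 0.08) and its target CHEK2 had 44.04 and 37.06 CPM (0.25, interval 0.15 to 0.35). Among these 4 kinases, both genes of the ATR branch were thus lower in the library labelled DR, and neither gene of the ATM branch was. This contrast rests on 4 genes. Of 17 further checkpoint genes, described below, 15 were below 0 and 2 above. CHEK2 has near-identical pseudogene copies elsewhere in the genome, so that its estimated counts are uncertain. They are fractional, as are those of 25 of the 39 genes in all, and the cause of this was not tested.

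Partners of one complex or step were compared in 15 pairs, in which the scaling of the libraries cancels. The largest changes were those of BRCA2 against BRCA1, LIG3 against XRCC1, ERCC2 against ERCC3 and XRCC3 against RAD51C (-0.56, interval -0.71 to -0.42), the 4 pairs that changed by at least 0.5 on the log2 scale. The interval spanned 0 for 1 pair, NBN and MRE11A.

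Per length, the repair genes covered a wide range of levels and stood in a similar order in both libraries. PARP1, XRCC6 (573.6 and 575.0 TPM in the libraries labelled DR and WT), DDB1 (294 and 261), XRCC5 (208.3 and 238.0) and PRKDC (114 and 173) held ranks 1 to 5 in each. FANCI (112 TPM in each library) was rank 6. At the low end stood LIG4 (6.23 and 6.03 TPM), BRCA2, FANCC (10.6 and 13.2), ERCC4 (11.34 and 11.01) and RAD52 (12.2 and 9.41). The median of the 39 was 31.5 TPM in the library labelled DR, against 37.1 in the library labelled WT, at percentiles 67.2 and 70.2 of all genes compared. Above the median gene lay 33 and 34 of them. The largest shifts of rank among the 39 were those of XRCC3, from 12 in the library labelled WT to 25 in the library labelled DR, and of LIG3, from 8 to 18.

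**Figure D3:**
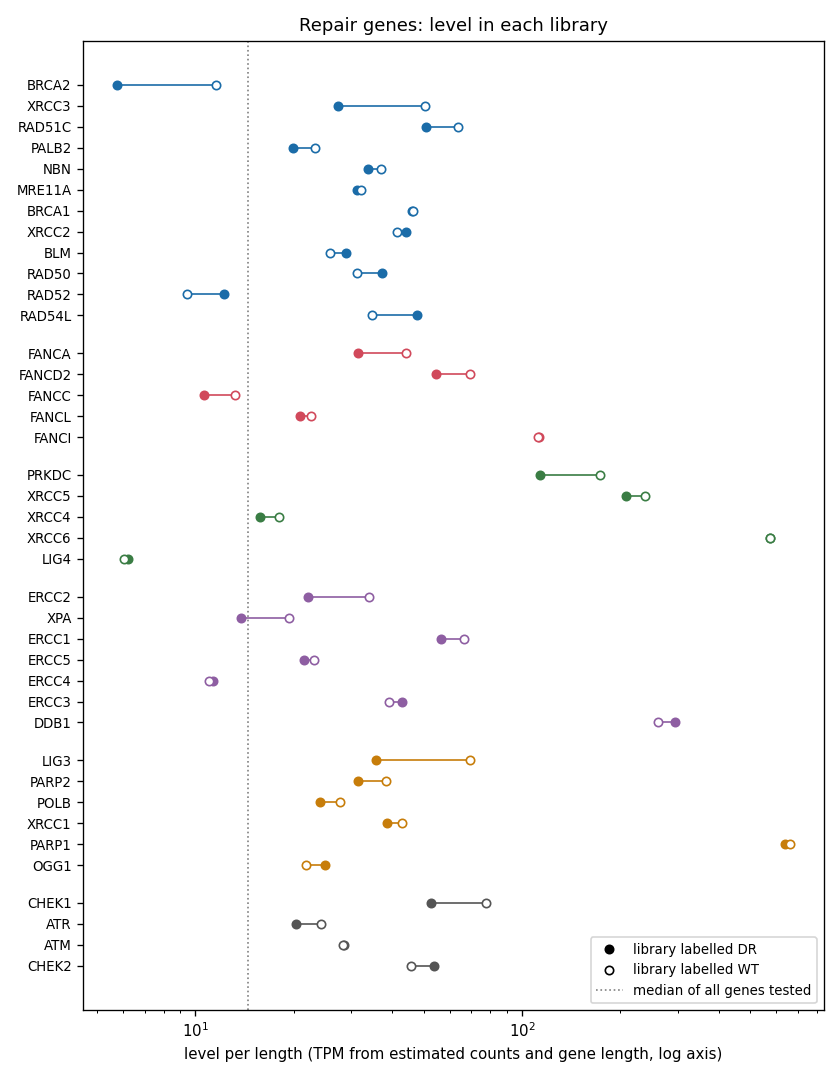
Level per length in TPM (horizontal axis, log scale) of each repair gene in the library labelled DR (filled points) and the library labelled WT (open points), grouped by role as in the plot of fold changes. PARP1 is highest in both libraries at 637 and 662 TPM, BRCA2 has the longest gap between its points (5.76 and 11.6 TPM), and the dotted line marks the mean over both libraries of the median of all genes compared.

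Other genes of the same pathways were taken from a list of 110 genes, of which 109 had at least 10 reads. Their median log2 fold change was -0.05. Past 2-fold there was 1 gene upward (0.917%) and 0 downward, against 7.48% and 4.16% of all genes compared. This gene was NEIL1, a glycosylase of oxidised bases. It had 848 reads in the library labelled DR, against 247 in the library labelled WT, and was higher by 1.06 on the log2 scale (0.90 to 1.32). Past 1.5-fold there were 2 upward (1.83%), NEIL1 and RMI2, and 6 downward (5.505%). Of all genes compared, 15.1% passed it upward and 11.2% downward. For genes whose mean reached 10 CPM these shares were 9.74% and 11.1%. Both shares of the longer list thus lay below those of other genes. The 7 genes beside NEIL1 were chosen for naming after their values were seen. RMI2, a subunit of the BLM dissolvasome, differed by 0.65 (0.57 to 0.76). The 6 lower genes were NEIL3 (-0.87), a relative of NEIL1, WEE1 (-0.75), the kinase that restrains CDK1, RBBP8 (-0.72) and DNA2 (-0.71), which resect broken ends, TDG (-0.69), the thymine DNA glycosylase, and the TFIIH subunit GTF2H3 (-0.61).

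The groups of the longer list did not all lean the same way as the 39. Of its 17 checkpoint genes, 15 were below 0, with a median of -0.27, whereas 7933 of all 16210 genes compared and 5248 of the 9860 at or above a mean of 10 CPM were below 0. The interval lay below 0 for 12 of these 17, against 34.6% and 44.4% of those genes. The 13 further Fanconi genes had a median of 0.06, with 6 intervals above 0 (35.8% and 37.8% of those genes) and 4 below, unlike the 5 Fanconi genes described above. The 31 recombination genes had a median of -0.10 and 18 intervals below 0, beside the same 34.6% and 44.4%. The medians were 0.04 over 9 end joining genes, -0.01 over 20 genes of nucleotide excision and -0.02 over 19 of base excision. Many recombination, Fanconi and checkpoint genes are made mostly in S and G2 phase. The 20 proliferation markers had a median log2 fold change of -0.15, with 14 intervals below 0 (34.6% of all genes and 44.4% of those at 10 CPM or more) and 3 above (35.8% and 37.8%) and 0 genes past 1.5-fold, led by CCNA2 (-0.57), AURKA (-0.56) and MCM4 (-0.53). Their part in the differences of the repair genes was not tested.

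Neighbouring genes on the chromosome were set beside each repair gene, in RefSeq order, after the values had been seen. For each of the 39 the 10 nearest compared genes on each side (fewer at chromosome ends) gave a median, which ranged from -0.47 to 0.37. BRCA2, on chromosome 13, had the lowest neighbourhood, at -0.47, with 15 of 20 neighbours below 0, and the median of the 268 genes of chromosome 13 was -0.22. XRCC3 on chromosome 14 lay among genes with a median of -0.42, and the 493 genes of that chromosome also had a median of -0.22. For PRKDC on chromosome 8 the neighbourhood stood at -0.38, with the adjacent genes MCM4 at -0.53 and CEBPD at 0.64. For CHEK1 on chromosome 11 it stood at -0.38 with 17 of 20 neighbours below 0. The medians of chromosomes 8 and 11 were nearer that of all genes, at -0.06 and -0.05. Of all genes compared, 7933 of 16210 were below 0.

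LIG3, XPA and ERCC2 were the 3 genes that departed from their neighbours by at least 0.5 on the log2 scale. LIG3 (chromosome 17) lay 1.16 below a neighbourhood at 0.22, XPA (chromosome 9) 0.83 below one at 0.37, and ERCC2 (chromosome 19) 0.66 below one at 0.07. BRCA2 lay 0.50 below its neighbours, just under that limit. MRE11A, at -0.02, lay among neighbours with a median of -0.40. RAD50, at 0.27, lay among genes at 0.37, of which 1 of 20 was below 0.

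**Figure D4:**
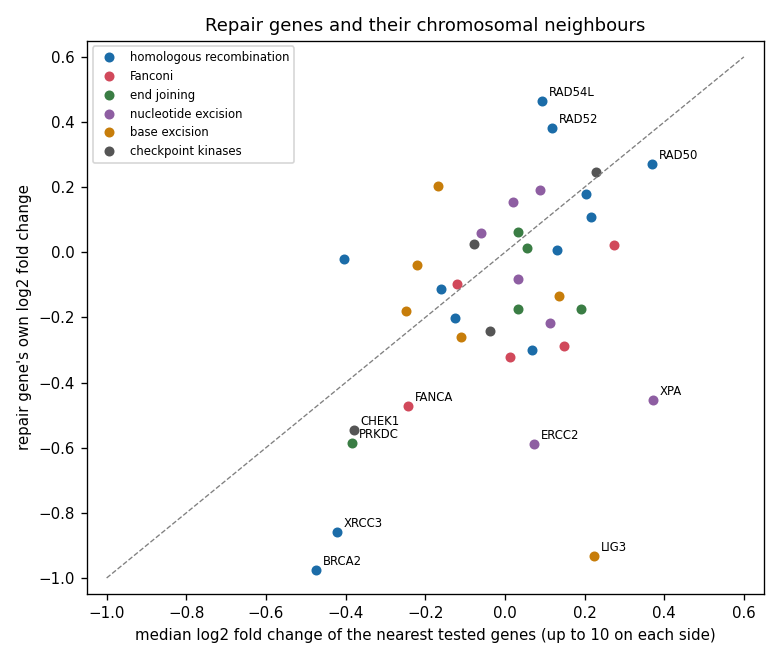
Each repair gene's own log2 fold change (vertical axis) against the median of its nearest compared genes on the chromosome (horizontal axis), coloured by role, with the dashed line marking equal values. LIG3, XPA and ERCC2 lie farthest below the line, while PRKDC and CHEK1 lie 0.20 and 0.17 below it at neighbourhood medians of -0.38.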

How the data were processed

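RNA-seq was measured in 1 library labelled DR and 1 library labelled WT. The authors deposited a table of estimated counts per gene, not scaled for depth, with the length of each gene. Per the labels, the submitters' processing notes name Bowtie 0.12.2 and hg19, while the counting tool and annotation are not given in the sources used here. Columns with the authors' comparison (a log2 ratio, its p and q and a direction) were not used. Of the genes, 663 had no count and 2057 had fewer than 10 reads over both libraries. Those left were compared without a p-value, since neither edgeR's quasi-likelihood test nor another replicate test could be fitted to 1 library per group.

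Counts were rounded and scaled by TMM (edgeR 4.0.16, R 4.3.3, factors 1.01 and 0.988). Log2 fold changes were taken after adding 0.5 CPM. For each gene a 95% Clopper-Pearson interval was taken from its reads, without that addition, and those of ratios are normal intervals from the 4 counts. At this depth 3 reads equal 0.054 and 0.0861 CPM. Python 3.11.15, SciPy 1.17.1, pandas 2.3.3 and NumPy 2.4.6 were used, and the computation was tested on simulated data. Alternatives were DESeq2 1.42.0 size factors, library totals, other pseudocounts and other filters. The 39 genes and all lists were chosen with earlier results of these data known. By rule, all 39 genes, other pathway genes past 2-fold and the 3 proliferation markers that changed most were named. The 7 other pathway genes past 1.5-fold only, and the neighbouring and overlapping genes, were named after their values were seen. Of the 110 other pathway genes, 2 were matched by a synonym. Exon overlaps came from GENCODE 29, on another build than that of the counts, and gave names and shares only. TYR and S100B were not analysed here.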

Additional observations from a re-analysis of the deposited data

How the results depend on the processing

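No paired analysis was possible because each condition has 1 library, and for the same reason no library could be left out. The number of repair genes past 2-fold was 0 under all 7 alternatives. The 5 past 1.5-fold, all lower in the library labelled DR, became 3 with library totals and 3 with a pseudocount of 5 CPM, since ERCC2 and PRKDC lie at the limit, and 1 (PRKDC) among the 14 repair genes with whole counts, an alternative added after seeing the data that leaves out BRCA2, LIG3, XRCC3 and ERCC2. With DESeq2's size factors, 0.1 CPM, no filter and at least 50 reads it was 5. All genes past 2-fold, 1886 of 16210 as reported (1212 higher, 674 lower), were 2633 (1726 and 907) with 0.1 CPM, 756 (423 and 333) with 5 CPM and 1067 (709 and 358) of the 7508 with whole counts, a larger share of fewer genes. Under 5 CPM NEIL1 no longer passed 2-fold, leaving 0 of the other pathway genes. The median of the 39 lay between -0.12 and -0.08, and that of the 14 with whole counts was -0.17. MRE11A alone of the 39 changed sign, to 0.01 with library totals. Without division by length the median level percentiles were 71.9 and 72.3 in the libraries labelled DR and WT. The counting interval spanned 0 for 9 repair genes, so that their direction was unresolved even for read counting. Deeply counted genes such as XRCC6 (31012 and 19266 reads in the libraries labelled DR and WT) were among them.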

Other observations

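Of the 39 repair genes, 14 share exon bases with another gene of the table in GENCODE 29, 8 of them over at least 10% of their exon bases, and 25 have fractional counts in either library, as do 53.7% of all genes compared. ERCC5 shares the most, 64.4%, with BIVM and the read-through gene BIVM-ERCC5 on its own strand. BIVM had 27.7 CPM in the library labelled DR, against 10.8 in the library labelled WT (1.32 on the log2 scale) and BIVM-ERCC5 a log2 fold change of 1.35, while ERCC5 stood at -0.08, and how reads were split among them is not given in the sources used here. ERCC1 shares 36.6% of its exon bases with CD3EAP on the opposite strand (-0.19, beside -0.22 for ERCC1), FANCL 26.6% with VRK2 (-0.40, beside -0.10) and OGG1 8.42% with CAMK1 (-0.86, beside 0.20).

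PRKDC, ATM and BRCA2 have the longest transcripts of the 39 in the table, at 13499, 11714 and 11386 bases, and stood at -0.59, 0.03 and -0.97. The 338 compared genes of at least 10000 bases had a median log2 fold change of -0.05. Past 1.5-fold were 51 downward (15.1%) and 52 upward (15.4%), against 11.2% and 15.1% of all genes compared.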
